A study of Mus musculus with 4 samples.

Results

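The R-spondins Rspo1 to Rspo4, their receptors Lgr4, Lgr5 and Lgr6 and the ubiquitin ligases Znrf3 and Rnf43 were followed in whole mouse kidney with experimental membranous nephropathy (MN). The 9 genes were chosen by name, with an earlier analysis of these arrays known in which Rspo1 stood out, so their differences between MN and control are given below as a description, without a test. They were represented by 11 of the 55681 probes on the array. The whole array carried 34607 names, counted here as genes, some of which are a probe's own name. Among the 7 members bright enough to be compared, Rspo1 signal was 6.08-fold higher in MN, whereas the other 6 differed by at most 1.61-fold. That limit is the value of Lgr6, which passed the filter through the control group and whose log2 difference of -0.69 moved between -1.19 and -0.18 when an MN array was left out; the next in size was Znrf3, at 1.48-fold. The receptor Lgr4 and both ligases were lower on both MN arrays than on either control, as were 19.8% of all genes compared.

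R-spondins are secreted proteins that strengthen WNT signalling. At the cell surface they bind an LGR receptor together with Znrf3 or Rnf43, membrane-bound ligases that tag Frizzled and LRP5/6, the WNT receptors, for removal. The complex takes the ligases off the membrane, so more Frizzled stays there and cells respond more strongly to WNT. Znrf3, Rnf43, Lgr5 and Axin2 are themselves WNT target genes, and the ligases thereby act as negative feedback. In the embryonic mouse kidney, Rspo1 and Rspo3 act in nephron progenitors and Lgr4 is needed for normal kidney growth.

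All mice were female BALB/C, 6 weeks old at the start, and every one was immunized with 0.2 mg of cationic bovine serum albumin (cBSA) in complete Freund's adjuvant. From 2 weeks later the MN group (n = 2 arrays) received cBSA intravenously at 13 mg/kg, 3 times a week for 6 weeks, which places immune complexes on the glomerular filter. The control group (n = 2 arrays) was injected on the same schedule without cBSA, with saline according to the treatment protocol and PBS according to the sample labels. The controls were therefore immunized too, and the comparison is of the repeated cBSA injections. Total kidney RNA was hybridized to 1-colour Agilent arrays, and the replicates named 1 in both groups lay on slide 1 and those named 2 on slide 2. The labels do not say whether the 2 samples of a group came from separate animals, so the spread between them may be technical.

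Levels are log2 signal relative to the array's 75th percentile, so 0 is the brightness below which 75% of the spots lie. They compare the same probe between arrays, and not different genes with each other. To be compared, a probe had to be called well above background by the scanner software on each array of the MN group, of the control group, or of both. Of the 11 member probes, 6 were well above background on all 4 arrays and 1 more, for Lgr6, passed through the control group; Rspo2, Lgr5 and a further Lgr6 probe did not pass. This left 7 of 9 members among 25293 genes. Between 63.1% and 79.5% of spots were well above background, and none was saturated. The share was highest on control array 2, whose lowest signal well above background lay at -6.04, against -5.06 on control array 1 and -4.89 and -4.77 on MN arrays 1 and 2. The proximal tubule and the loop, distal tubule and collecting duct markers were present, with 10 of 10 and 9 of 10 genes passing the filter, and their median log2 differences were -0.02 (0.09 under quantile normalization) and -0.09.

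The first 30 of the 60 bases of each probe for the ligands, and for the receptors that have 2 probes, are shown because each ligand value rests on a single probe and because the receptor probes gave unequal readings. They are printed 5′ to 3′, as deposited in the array files.
Rspo1: ccgtggtacacgtcacggatgacctgactt
Rspo2: ccttaggtcagtttgtccttagattatgaa
Rspo3: ggatactactttctaacaaggtgtatctag
Rspo4: gttcacacctctgaaatgctttcttatttc
Lgr5, probe 1: catgtaaatacgtagtgcttgtaaatagat
Lgr5, probe 2: acctctagtgcttatatagaaacttgtgtg
Lgr6, probe 1: tggagaagagctcctgcgactccacccaag
Lgr6, probe 2: gtctctgttctacatatttggatctgacaa
On the mm9 build the whole Rspo1 probe lies at chr4:124686270-124686329 on the plus strand, and the probes of Rspo2, Rspo3 and Rspo4 at chr15:42852727-42852786 (minus), chr10:29172930-29172989 (minus) and chr2:151700345-151700404 (plus). The Lgr5 probes lie at chr10:114887403-114887462 and chr10:114900686-114900745 and the Lgr6 probes at chr1:136883782-136883841 and chr1:136880538-136880597, all on the minus strand. Their place within exons or untranslated regions was not analysed here. The longest run of bases that the Rspo1 probe shared with another member's probe was 9, and over all 11 probes this ranged from 7 to 13. No other probe on the array shared a run of 20 bases with any of them.

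Rspo1, known for its part in ovary determination and as a growth factor for epithelial stem cells, was the ligand with the large difference. Its level was -3.79 on control array 1, -3.79 on control array 2, -1.14 on MN array 1 and -1.24 on MN array 2. Both MN arrays lay far above both controls, and arrays of the same group lay close together. The MN mean was -1.19 ± 0.075 (SD, n = 2) and the control mean -3.79 ± 0.00073 (SD, n = 2). The difference of 2.60 on the log2 scale had a standard error of 0.14 in the fit across all genes (limma), and it was 2.66 on slide 1 and 2.55 on slide 2. Among the 25293 genes compared, Rspo1 had the 39th highest difference, and the 13th highest among the 23272 genes whose probe was well above background on all 4 arrays.

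The Rspo1 spot itself was dim but readable on the controls. In controls 1 and 2 its raw signal was 129 and 109, against local backgrounds of 38.5 and 39. In MN 1 and 2 it was 424 and 567, against 40 and 36. After the scanner software's background subtraction these became processed signals of 53.1 and 59.0 in the controls and 349 and 509 in MN, with software error estimates of 10.1% to 13.3%. The size of the difference depended on how background was handled: with normexp correction and an offset of 50, close to the control signal itself, it was 1.64 on the log2 scale. Under quantile normalization it was 2.67. In whole tissue, more cells that make a transcript and more transcript per cell cannot be told apart.

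**Figure D1:**
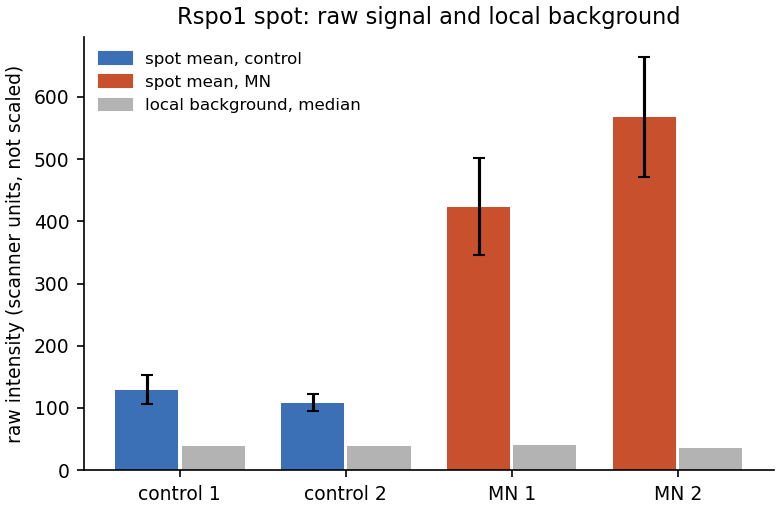
Raw intensity of the Rspo1 spot (coloured bars, mean over pixels, error bars 1 SD of the pixels) and the median local background beside it (grey bars) on each of the 4 arrays, in scanner units without scaling. The control spots, at 129 and 109, stand above backgrounds of 38.5 and 39, and the MN spots reach 424 and 567 over similar backgrounds.

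Rspo3, a ligand needed for blood vessel and placental development, showed no such separation. Its level was -3.29 and -4.05 in controls 1 and 2 and -3.64 and -3.85 in MN 1 and 2, so both MN arrays lay between the controls. The difference was -0.08 (SE 0.31). It was -0.35 on slide 1 and 0.20 on slide 2, and its sign turned under quantile normalization (0.06) and when control array 1 (0.30) or MN array 2 (0.03) was left out. Without control array 2 it was -0.45.

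Rspo4, the ligand whose loss in people leaves the nails unformed, had levels of -4.04 and -3.60 in controls 1 and 2 and -4.02 and -3.68 in MN 1 and 2. The groups overlapped, and within each group the array on slide 2 was the brighter. The difference was -0.03 (SE 0.24), with 0.02 on slide 1 and -0.08 on slide 2, and it was 0.07 under quantile normalization. Leaving out control array 1 or 2 gave -0.25 or 0.19.

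Rspo2, a ligand of limb and lung development, was not well above background on any array. Its levels of -7.20 and -8.20 in the controls and -6.97 and -6.88 in MN came from processed signals of 2.79 to 10.2, all 4 of them surrogate values that the scanner software puts in place of a signal not above background. No fold is given for it.

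**Figure D2:**
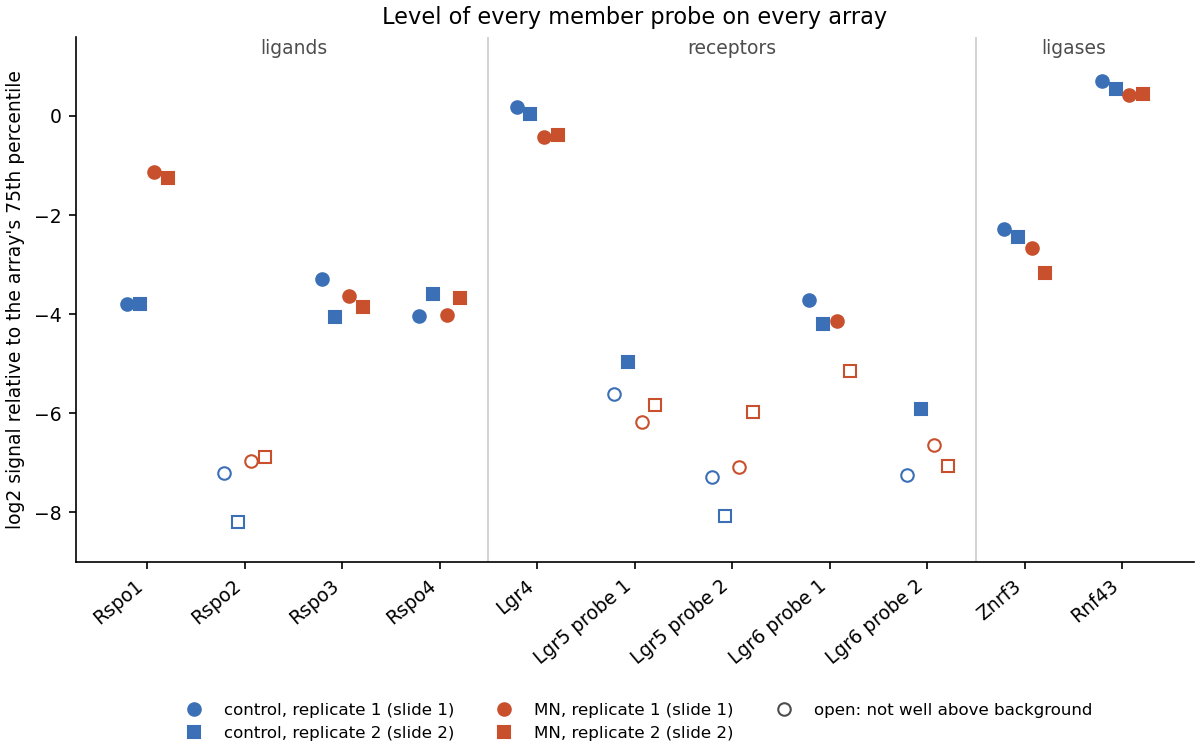
Log2 signal relative to the array's 75th percentile (vertical axis) for the 11 member probes, by array; colours separate control and MN, circles are slide 1, squares slide 2, and open symbols were not well above background. Rspo1 is the probe whose MN symbols, at -1.14 and -1.24, stand far from the controls at -3.79; heights of different probes are not comparable.

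Lgr4, the R-spondin receptor found in the widest range of tissues, had levels of 0.17 and 0.03 in controls 1 and 2 and -0.43 and -0.39 in MN 1 and 2. Both MN arrays lay below both controls. The control mean was 0.10 ± 0.10 and the MN mean -0.41 ± 0.027 (SD, n = 2 each). The difference of -0.51 (SE 0.14), a 1.43-fold lower signal, was -0.60 on slide 1 and -0.42 on slide 2. It kept its size with normexp correction (-0.49) and quantile normalization (-0.52), the spot being at least 14.1 times its local background on every array.

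Lgr5, the receptor that marks stem cells of the intestine and precursors of the developing nephron, was at the edge of detection. Probe 1 read -5.62 and -4.97 in controls 1 and 2 and -6.19 and -5.84 in MN 1 and 2, and only control array 2 was well above background. Probe 2 read -7.29 and -8.07 in the controls and -7.10 and -5.98 in MN, and was not well above background on any array. The probes leaned in opposite directions, both MN arrays being below both controls with probe 1 and above them with probe 2. Neither gives a fold that detection would bear.

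Lgr6, a receptor known from hair follicle stem cells, passed the filter with probe 1. Its levels were -3.72 and -4.20 in controls 1 and 2 and -4.14 and -5.15 in MN 1 and 2, the last of which was not well above background. MN array 1 lay between the controls, so the groups overlapped. The difference of -0.69 (SE 0.41) was -0.42 on slide 1 and -0.95 on slide 2, and it was -1.19 without MN array 1 and -0.18 without MN array 2. Probe 2, at -7.24, -5.92, -6.64 and -7.06 in the same order of arrays, was well above background on control array 2 alone.

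Znrf3, the ligase that with Rnf43 clears Frizzled from the cell surface, had levels of -2.28 and -2.44 in controls 1 and 2 and -2.67 and -3.17 in MN 1 and 2. Both MN arrays lay below both controls, MN array 2 farther than MN array 1. The control mean was -2.36 ± 0.11 and the MN mean -2.92 ± 0.35 (SD, n = 2 each). The difference of -0.56 (SE 0.23) was -0.40 on slide 1 and -0.73 on slide 2. It was -0.34 with normexp correction and -0.31 without MN array 2.

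Rnf43, the other ligase, had levels of 0.70 and 0.55 in controls 1 and 2 and 0.42 and 0.44 in MN 1 and 2. Both MN arrays were lower than both controls, by a small margin. The difference was -0.19 (SE 0.14), with -0.28 on slide 1 and -0.11 on slide 2, and -0.12 without control array 1. The spot stood at 26.4 to 43.4 times its local background.

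**Figure D3:**
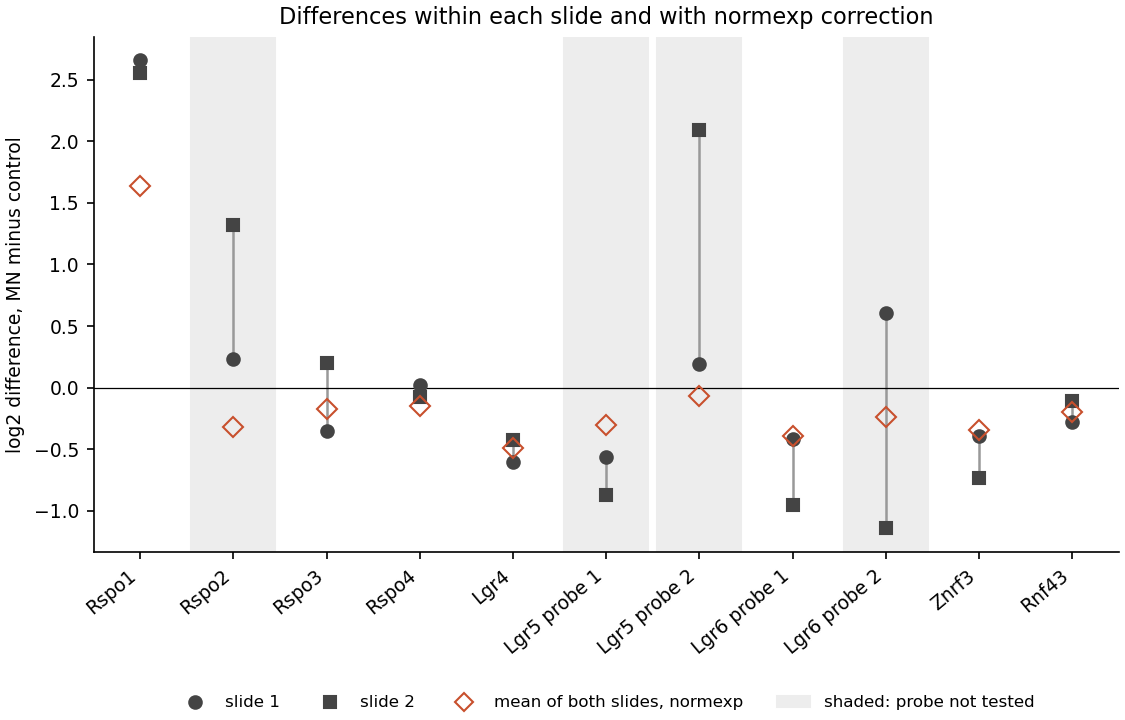
Log2 difference, MN minus control, of each member probe within slide 1 (circles) and slide 2 (squares), and the mean of both after normexp background correction (diamonds); shaded probes were not tested. Rspo1 is at 2.66 and 2.55 within the slides and at 1.64 with normexp, Lgr4, Znrf3 and Rnf43 are below 0 on both slides, and the shaded dim probes include the widest gap between slides, 0.19 and 2.09 for Lgr5 probe 2.

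Of the 7 members compared, Rspo1 was higher and 6 were lower in mean, among them Rspo3 and Rspo4, which were above 0 under quantile normalization. The members' median difference was -0.19, and that of all 25293 genes was -0.05. Both MN arrays lay above both controls for 1 member, Rspo1, as they did for 13.2% of all genes. Both lay below for 3 members, Lgr4, Znrf3 and Rnf43, as they did for 19.8% of all genes. At an adjusted p under 0.05 by limma, 5 genes were called higher (0.0198%) and 0 lower (0%), with 891 genes higher and 883 genes lower where the unadjusted p was under 0.05. No member was among the called genes, and with the slide as a block, or without any one of the 4 arrays, 0 genes were called higher. Because the members were selected on this contrast, nothing is read from these counts. The 7 compared members ran from -0.69 to 2.60, and the 5th and 95th percentiles of all genes were -0.60 and 0.46.

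**Figure D4:**
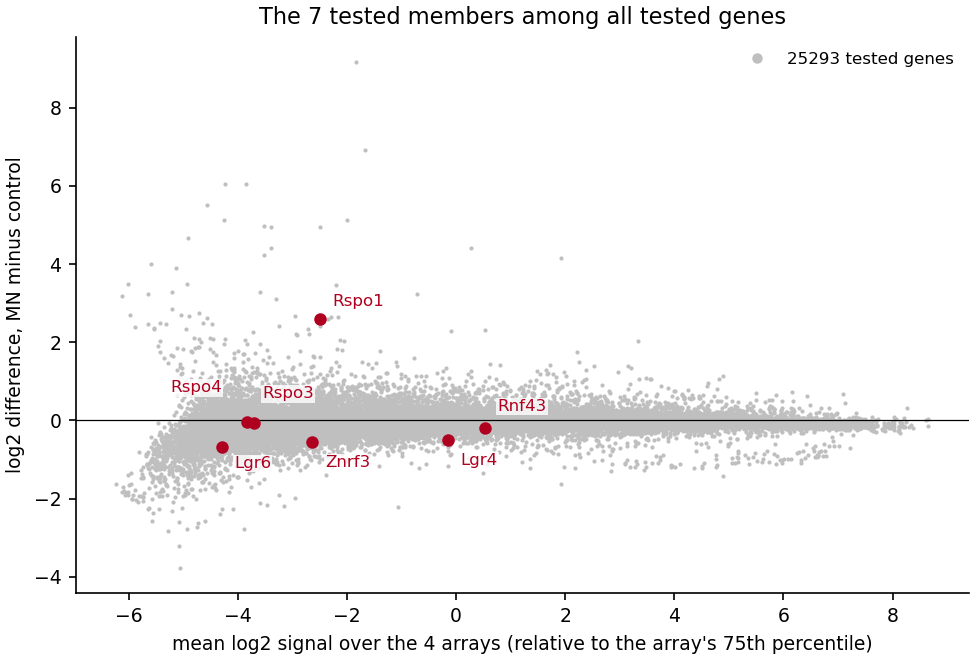
Log2 difference, MN minus control, against mean log2 level over the 4 arrays for the 25293 genes compared (grey) and the 7 members among them (red). Rspo1 lies at 2.60, above most genes of its brightness, and the other 6 members lie between -0.69 and -0.03; Rspo3 and Rspo4, next to 0, were above it under quantile normalization.

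The WNT receptors on which Znrf3 and Rnf43 act were lower in mean for 9 of 10 compared genes. At an adjusted p under 0.05 over all genes 0 of the 10 passed (limma, 2 at an unadjusted p under 0.05). Their median difference was -0.28, against -0.05 over all genes, and was -0.26 under quantile normalization. In 7 of 10 both MN arrays lay below both controls, against 19.8% of all genes. The largest differences were those of Fzd6 (-0.57, SE 0.26), Fzd5 (-0.52, SE 0.18) and Fzd9 (-0.49, SE 0.14). The gene with the opposite sign was Fzd2, at 0.38 (SE 0.14). The co-receptors Lrp5 and Lrp6 differed by -0.10 and -0.16. Fzd10 was not well above background on any array. Fzd7 was listed with the target genes of the next paragraph and is not in these counts. It differed by -0.42 (SE 0.14), with both MN arrays below both controls.

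Target genes of WNT signalling went both ways. Of 19 compared, 8 were higher and 11 lower in mean, 0 passed the test over all genes (3 at an unadjusted p under 0.05, limma), and the median was -0.11. The 3 with the largest differences were Tnfrsf19, a receptor gene (-0.50, SE 0.45), Myc, a growth regulator (-0.49, SE 0.15), and Nkd2, a feedback inhibitor of the pathway (0.47, SE 0.51). Tnfrsf19 was 0.12 on slide 1 and -1.12 on slide 2, whereas Myc was -0.56 and -0.43. Without control array 2 the median of the list was 0.18. Axin2, the target most often used as a readout of the pathway, was not compared: its brighter probe read -6.02 and -4.98 on control arrays 1 and 2 and -6.90 on both MN arrays, and only control array 2 was well above background. Apcdd1, Dkk1 and Bambi were not well above background on any array.

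Intracellular parts of the pathway were near 0. Of 19 compared, 6 were higher and 13 lower, 0 passed the test (limma, 0 at an unadjusted p under 0.05), and the median was -0.06, close to that of all genes. Bcl9, a beta-catenin coactivator, differed by -0.56 (SE 0.25), Btrc, a ligase that marks beta-catenin for breakdown, by -0.33 (SE 0.14), and Dvl3, which relays the signal from Frizzled, by -0.31 (SE 0.51). Beta-catenin itself, Ctnnb1, differed by 0.01 (SE 0.13).

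Other reported partners of R-spondins, LGRs and the ligases, which include syndecans and glypicans, were higher for 10 and lower for 4 of 14 compared genes. None of the 14 passed the test over all genes (limma, 0 at an unadjusted p under 0.05 as well), and the median was 0.09. Sdc1, a cell-surface proteoglycan, differed by -0.42 (SE 0.15), Sdc3 by 0.26 (SE 0.26) and Tmem79 by -0.26 (SE 0.19).

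Secreted WNT inhibitors and their receptors held the largest differences after Rspo1 among the pathway genes compared. Of 10 compared, 6 were higher and 4 lower, 0 passed the test over all genes (limma, 3 at an unadjusted p under 0.05) and the median was 0.04. Sfrp5, a decoy that binds WNT proteins, had levels of -2.96 and -2.62 in controls 1 and 2 and -1.58 and -1.55 in MN 1 and 2. Both MN arrays were above both controls, by 1.38 on slide 1 and 1.07 on slide 2, but its adjusted p of 0.342 by limma missed the threshold. Its relative Sfrp4 differed by 0.90 (SE 0.22, adjusted p = 0.524 by limma), and Kremen2, a receptor for the inhibitor Dkk1, by -0.61 (SE 0.24). With normexp correction Sfrp5 was at 0.81, Sfrp4 at 0.34 and Kremen2 at -0.32.

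**Figure D5:**
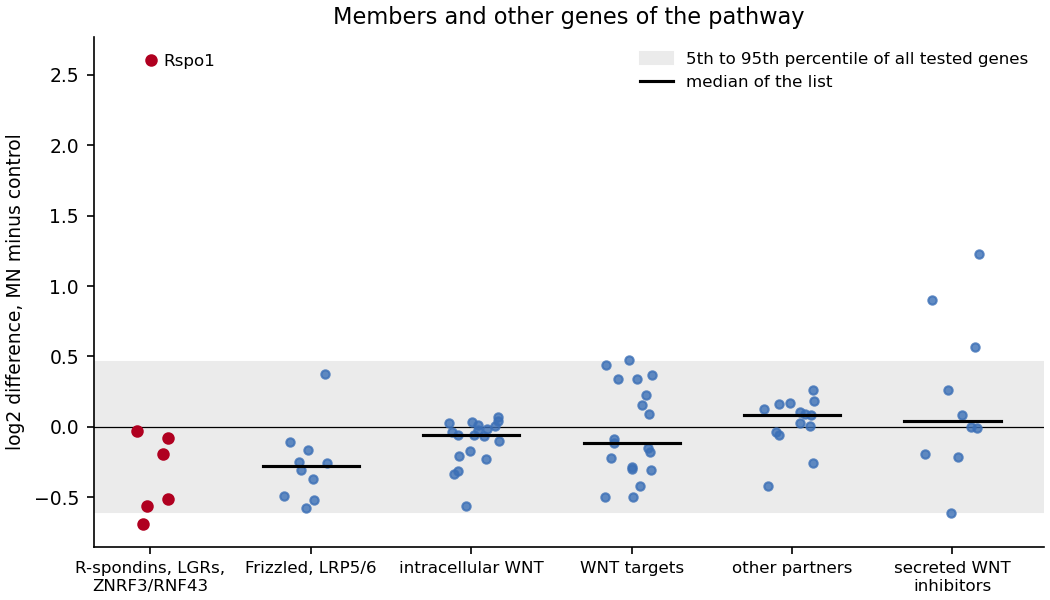
Log2 difference, MN minus control, of the 7 compared members (red) and of 5 lists of other pathway genes (blue, 1 point a gene), with the list median as a bar and the 5th to 95th percentile of all genes (-0.60 to 0.46) in grey. Rspo1 stands at 2.60, the Frizzled and LRP list has its median at -0.28, and Sfrp5, at 1.23, is the highest of the secreted inhibitors.

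The genes whose pattern over the 4 arrays was most like that of Rspo1 were found by the root mean square distance between log2 levels centred on each gene's mean. They were Cidec, a lipid droplet gene (distance 0.024), 7530428D23Rik (0.054), Pcnx2 (0.057), Thbs4, a matrix gene (0.098), and Zbtb16, a transcription factor gene (0.15). Cidec differed by 2.63 on slide 1 and 2.54 on slide 2 with this probe, but its other probe differed by 0.27. The probes of 7530428D23Rik and Pcnx2 were well above background on 2 of the 4 arrays. With 4 arrays in 2 groups, likeness mostly says that a gene differs between the groups by a like amount.

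The genes beside Rspo1 on chromosome 4 were looked up within 200 kb of its probe, a distance set after the data were seen. The 14 other probes there that passed the filter carried 11 names, among them a probe's own name. They differed by -0.68 to 0.31 with a median of 0.08. The lowest was Epha10 and the highest Mtf1, so none was near the Rspo1 value.

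Whole kidney can carry cells of its surface and of neighbouring tissue, and their markers were read beside Rspo1. Mesothelium, a cell layer over part of the kidney's outer surface, has been reported to make Rspo1. Its marker Msln had levels of -3.80 and -3.62 in controls 1 and 2 and -1.39 and -1.20 in MN 1 and 2, a difference of 2.42 on each slide (SE 0.16, adjusted p = 0.106 by limma). The marker Upk3b differed by 0.67 and Upk1b by -0.35. Of 7 mesothelial markers compared, 5 were higher in mean (4 with normexp correction), the median was 0.02 and 0 passed the test (limma, 2 at an unadjusted p under 0.05). Their summed signal, in multiples of the 75th percentile, was 41.6 and 42.3 in the controls and 39.6 and 44.7 in MN. That sum was set mainly by the brightest markers, Krt8, Krt18 and Gpm6a, which differed by 0.0032, 0.023 and -0.084. Msln, being dim, hardly entered it. Lrrn4 and Bnc1, also defining markers, were not well above background on any array, so no fold is given for them. Lrrn4 read -7.26 and -6.36 in controls 1 and 2 and -5.18 and -4.43 in MN 1 and 2. Bnc1 read -7.31 and -8.02 in the controls and -7.09 and -6.88 in MN. The part of mesothelial cells in the Rspo1 value was not tested.

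Adipose markers were higher in mean for 6 of 11, with a median of 0.40 (0.11 with normexp correction). Of the 11, 2 were called higher, Adipoq and Cfd (adjusted p = 0.0457 each, limma). Neither was called with the slide as a block, where the smallest adjusted p by limma was 0.0582. Both passed the filter through the MN group alone, Adipoq being well above background in neither control and Cfd in only 1. Their differences of 6.04 and 6.92 were 2.48 and 5.08 with normexp correction. Both MN arrays also lay above both controls for Car3 (a difference of 3.46), for Cidec (2.59 with the probe above) and for Retn, which was not well above background in either control. Plin1, which coats lipid droplets, differed by 0.40, Fabp4 by -0.10 and Lep by -0.09. Ucp1 was not well above background on any array, and the summed signal was 249 and 368 in the controls and 238 and 277 in MN. That sum was set mainly by the brightest markers, Pck1, Lpl and Fabp4. Pck1 alone had levels of 7.46 and 8.25 in controls 1 and 2 and 7.40 and 7.70 in MN 1 and 2. Dimmer markers such as Adipoq and Cfd hardly entered the sum. Podocyte markers were higher in mean for 7 of 10, with a median of 0.56 and a summed signal of 36.0 and 33.2 in the controls and 72.4 and 68.6 in MN. Stromal markers were higher for 10 of 10 (9 with normexp correction), with a median of 0.33 and sums of 35.8 and 32.8 against 45.1 and 45.6. For 6 of these 10 both MN arrays lay above both controls. Liver markers were higher for 7 of 8 with a median of 1.06 (0.49 with normexp correction). Their sums were 25.3 and 23.6 against 36.9 and 40.6, and Apoa1 was not well above background on any array. Markers of adrenal cortex and ovary, tissues near the kidney, had medians of -0.36 and -0.24, and those of endothelium, B and plasma cells and erythroid cells of -0.00089, -0.16 and 0.14. The B and plasma cell list was split, with 3 genes higher and 5 lower. Jchain (3.23), Derl3 (1.19) and Mzb1 (0.85) had both MN arrays above both controls. For 3 of the lower genes both MN arrays lay below, with Ms4a1 (-0.60) the lowest. The summed signal of this list was 2.51 and 2.39 in the controls and 4.25 and 4.47 in MN. The part of all these tissues and cells in the values of Rspo1 and of the other members was not tested.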

How the data were processed

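Each of 4 Agilent arrays carried RNA of 1 kidney sample (2 control, 2 MN). The scanner output deposited by the authors gives linear intensity per spot. Its headers name Feature Extraction 10.5.1.1, which had subtracted the background and put surrogates for signals not above it. The authors' deposited value table holds log2 values centred on the control mean and served as an alternative; its replicate columns were exchanged relative to the scanner files, and which order is right is unknown. Control and non-uniform spots were left out. Log2 processed signal was scaled to each array's 75th percentile. A gene was represented by its brightest probe among those well above background throughout a group. Symbols followed a RefSeq gene table (GRCm38.p6) by accession for 28026 probes. For 23942 probes the name in the array files was kept, which for some is the probe's own name, and each such name counted as a gene. Fits used limma 3.58.1 in R 4.3.3, with Benjamini-Hochberg adjustment over 25293 genes and a threshold of 0.05. A check on simulated data, which had no slide effect, covered the size of the estimated differences and not the threshold. Figures used Python 3.11.15 and matplotlib 3.10.9. The members, gene lists and tests were chosen with earlier results of these data known. Named were all members, the 3 genes of each pathway list with the largest difference, the first markers of each list, and the 5 genes nearest to Rspo1; further genes were named after their values were seen. Same-numbered arrays deviated together (correlation of 0.63 over genes), and they share a slide. With 2 arrays a group, array number limits the precision.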

Additional observations from a re-analysis of the deposited data

How the results depend on the processing

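The count of genes called higher, 5 as reported, was 15 with normexp correction, 17 with quantile normalization, 11 when arrays were scaled to the median of detected probes, 0 without a filter on dim probes, 1 with probes well above background on all 4 arrays, and 22 at a threshold of 0.1. With the replicate number, which is also the slide, as a block, it was 0 (limma, with 1588 genes higher and 2291 genes lower at unadjusted p under 0.05, and a smallest adjusted p of 0.0582). Leaving out any single array gave 0 to 0. The Rspo1 difference was 1.64 with normexp correction. The number of compared members with a higher mean in MN, 1 as reported, was 3 with quantile normalization, where Rspo3 (0.06) and Rspo4 (0.07) turned positive, and 2 to 2 when a single array was left out. The median of WNT target genes lay between -0.18 and 0.18 when a single array was left out, the upper value being without control array 2. Array brightness over background limits what can be said of Rspo2, Lgr5 and the second Lgr6 probe.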
